A study of Mus musculus with 194 samples.

Results

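The comparison set transposon insertions in cortex of Syn1Cre SP1 mice at postnatal day 28 (P28, 4 animals) against those at postnatal day 10 (P10, 3 animals). Members were chosen by the names of the deposited insertion tables, 7 of the 47 tables of the series, which lists 194 samples in all. All 7 animals carry the Syn1Cre label, a line in which the Syn1 promoter drives Cre in neurons, and an SP1 construct that the labels do not describe, and all received AAV on the day of birth or the day after. The labels read P10 and P28 without further words, taken here as ages. Each cortex was cut into 10 pieces whose RNA was indexed apart, and each table joins the pieces of 1 cortex, so the cortex was the replicate. Whether the animals came from separate litters is not given, and p-values measure only the spread between these cortices. Tables from the same Cre line without SP1 (Syn1Cre, 6 animals) and from GFAPCre mice, in which the GFAP promoter drives Cre in astrocytes (6 animals), show the level without the factor. The labels give no age for these unfused tables.

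Calling cards record where a DNA-binding protein has been: a transposase joined to the protein inserts a reporter transposon at a TTAA sequence near the place the protein sits, and the mark stays in the genome. Insertions therefore add up over the life of the construct, so a P28 table can also hold marks made earlier. SP1 is a zinc finger factor that binds GC-rich boxes, many of them in promoters of broadly used genes. Between the 2 ages the mouse cortex passes through the growth and ripening of astrocytes, the building of synapses, and the settling of interneurons.

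Promoter sequences of 5 genes that the text describes are shown as context for the counts at their starts; whether sequence bears on the calls was not tested. Below are the 250 bases before a gene start, written 5′ to 3′ on the gene's strand, from RefSeq sequences of GRCm38.p6. Capitals mark GC boxes, GGGCGG on either strand. The first 3 belong to genes known from astrocytes, called higher at P28 over the locus (Gjb6) or at the start (Dio2 and Slc7a11). Ube2d3, a ubiquitin-conjugating enzyme gene, was also called higher at its start, and Sp1, the factor's own gene, was called lower over its locus.
Gjb6 (chr14:57133612-57133861, minus strand): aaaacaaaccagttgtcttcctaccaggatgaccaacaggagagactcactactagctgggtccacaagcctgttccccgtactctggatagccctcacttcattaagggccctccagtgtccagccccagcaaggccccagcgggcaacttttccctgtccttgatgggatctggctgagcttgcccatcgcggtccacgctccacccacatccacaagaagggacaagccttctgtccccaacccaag
Dio2 (chr12:90739039-90739288, minus strand): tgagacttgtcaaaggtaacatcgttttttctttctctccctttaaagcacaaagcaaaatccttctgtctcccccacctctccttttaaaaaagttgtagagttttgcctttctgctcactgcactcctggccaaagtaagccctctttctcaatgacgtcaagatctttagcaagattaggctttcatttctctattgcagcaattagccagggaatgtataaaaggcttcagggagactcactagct
Slc7a11 (chr3:50443614-50443863, minus strand): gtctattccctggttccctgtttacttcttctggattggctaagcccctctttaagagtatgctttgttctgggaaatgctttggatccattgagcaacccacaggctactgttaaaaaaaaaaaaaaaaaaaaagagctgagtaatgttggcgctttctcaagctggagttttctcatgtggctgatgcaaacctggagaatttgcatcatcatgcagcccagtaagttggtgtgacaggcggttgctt
Ube2d3 (chr3:135437982-135438231, plus strand): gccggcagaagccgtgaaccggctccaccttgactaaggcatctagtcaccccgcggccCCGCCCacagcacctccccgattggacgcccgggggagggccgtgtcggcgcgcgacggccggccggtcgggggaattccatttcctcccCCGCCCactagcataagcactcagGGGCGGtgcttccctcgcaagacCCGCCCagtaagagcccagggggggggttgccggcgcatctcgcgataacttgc
Sp1 (chr15:102406066-102406315, plus strand): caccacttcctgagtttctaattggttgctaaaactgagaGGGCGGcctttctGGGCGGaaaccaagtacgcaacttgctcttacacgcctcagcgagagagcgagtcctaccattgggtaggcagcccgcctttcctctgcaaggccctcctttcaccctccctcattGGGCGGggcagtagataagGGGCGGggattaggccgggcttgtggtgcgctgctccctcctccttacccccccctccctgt
The 250 bases held 4 GC boxes at Sp1, 4 at this start of Ube2d3 and 0 at Gjb6, Dio2 and Slc7a11. Over all 20085 promoter sequences of that length, 43.4% held at least 1. A match is a description of letters, and a missing match says only that these letters are not in this window.

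The tables held 231909, 108965, 164616 and 577609 insertions in P28 animals 1 to 4 and 86842, 89773 and 95331 in P10 animals 1 to 3. Every P28 cortex gave more than every P10 cortex, and P28 animal 4 was the deepest. On a log10 scale the count was 5.34 ± 0.308 (SD, n = 4) at P28 and 4.95 ± 0.0204 (SD, n = 3) at P10 (exact two-sided permutation test over 35 splits, p = 0.0571, adjusted 0.0714 over 5 tests). The smallest p this design allows is 0.0286. The labels list sequencing pools that hold pieces of several animals, 10 pools for each cortex. P28 animal 4 shared 9 pools with each of P10 animals 1 and 3 and 1 with P10 animal 2. P28 animal 3 shared 8 with P10 animal 2 and 2 with each of P10 animals 1 and 3. P28 animal 2 shared 2 with P10 animal 2 and 1 with each of the others, and P28 animal 1 shared 0 with P10 animals. Values given within pools therefore set P28 animal 3 against P10 animal 2 and P28 animal 4 against P10 animals 1 and 3, which shared most of their pools but not all. Of the positions of P10 animals 1, 2 and 3, 45.9%, 46.4% and 45.8% recurred in P28 animal 4, and 25.9%, 27.1% and 25.7% in P28 animal 3. P10 animal 2 was the highest in both.

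A larger share of insertions lay inside genes at P28. The share of insertions inside protein-coding gene bodies was 57.8%, 56.4%, 57.2% and 55.8% in P28 animals 1 to 4 and 51.3%, 51.5% and 50.6% in P10 animals 1 to 3. The groups did not overlap, with a mean of 56.8% ± 0.865 (SD, n = 4) at P28 and 51.1% ± 0.430 (SD, n = 3) at P10 (exact permutation test, two-sided p = 0.0286, adjusted 0.0714 over 5 tests). The adjusted value misses 0.05. Within these pool sets the P28 animal was higher by 5.71 and by 4.86 percentage points. Unfused tables lay at 58.3% ± 1.45 (SD, n = 6) for Syn1Cre and 59.7% ± 0.799 (SD, n = 6) for GFAPCre. Gene bodies make up 40.0% of the genome length measured.

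Insertions were dense near gene ends at both ages. Insertions less than 1 kb from the start or end of a gene made up 19.1%, 22.3%, 20.9% and 16.5% in the P28 animals and 21.4%, 23.4% and 23.4% in the P10 animals, against 7.65% ± 0.442 (SD, n = 6) in unfused Syn1Cre and 3.04% of the genome length. The ages overlapped in this measure (exact permutation test, two-sided p = 0.114). P28 animal 4 was the lowest of all 7. In 50 kb windows that no protein-coding gene overlaps, 16.4% ± 1.18 (SD, n = 4) of insertions lay at P28 and 18.5% ± 0.428 (SD, n = 3) at P10 (exact permutation test, two-sided p = 0.0571), and unfused Syn1Cre stood at 22.9% ± 0.749 (SD, n = 6). Table lines per distinct position, a measure of repeated use of a site, were 1.33 ± 0.0601 (SD, n = 4) at P28 and 1.22 ± 0.0348 (SD, n = 3) at P10 (exact permutation test, two-sided p = 0.0571).

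**Figure D1:**
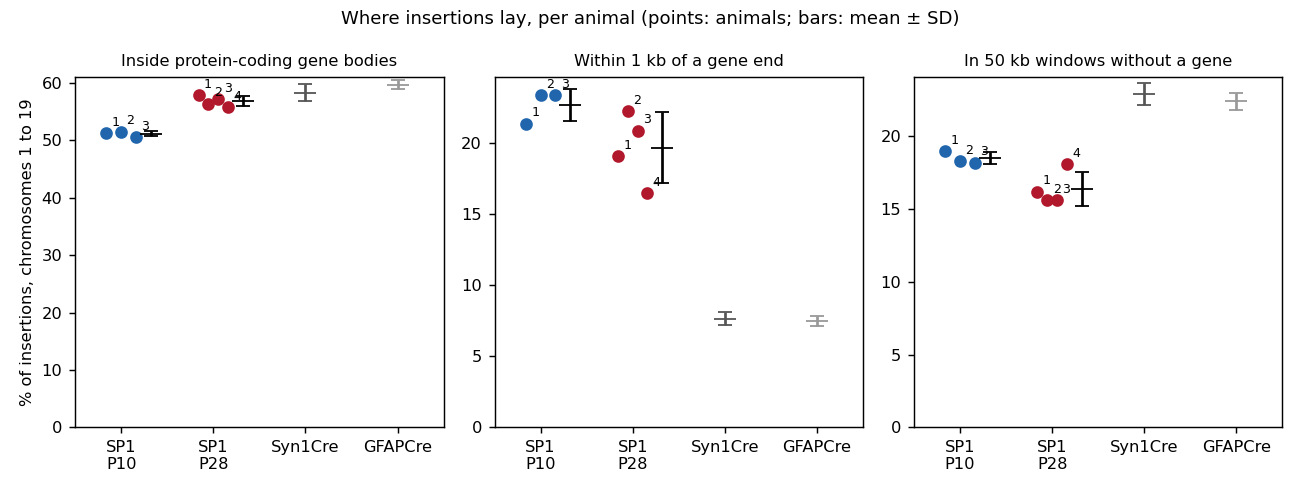
Percent of insertions inside gene bodies, within 1 kb of a gene end, and in 50 kb windows without a gene; points are single animals labelled by number, bars are mean ± SD, and the unfused groups are given as mean ± SD over 6 animals. For gene bodies all 4 P28 animals (55.8% to 57.8%) lie above all 3 P10 animals (50.6% to 51.5%), while the ages overlap near gene ends.

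A set of sites was marked in every animal. On chromosomes 1 to 19, 6251 positions held an insertion in all 7 cortices, and 48.6% of them lay within 1 kb of a gene end. Positions seen in all 4 P28 cortices and in no P10 cortex numbered 2957, of which 19.3% lay near a gene end. The reverse, in all 3 P10 cortices and no P28 cortex, counted 83, of which 8.43% lay near a gene end. The P28 tables hold more insertions, so these numbers are not set against each other as a change. Among genes with 10 kb flanks, Zbtb20 held the most of the 2957, with 31 positions, followed by Nfia with 28, Cpe with 19 and Npas3 with 18.

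Gene loci were compared next, a locus being the span of a protein-coding gene and its 10 kb flanks. Levels below are insertions per 1000000 insertions (CPM) after TMM scaling, and changes are log2 fold changes, P28 minus P10, with their standard error (SE) from the quasi-likelihood test of edgeR with Benjamini-Hochberg adjustment over all loci tested. Of 3406 loci with enough insertions, 249 (7.31%) were called higher at P28 and 126 (3.70%) lower at an adjusted p of 0.05. With scaling by total insertions, which moves the median locus from 0.03 to -0.10, 162 were called higher (4.76%) and 208 lower (6.11%). The ages did not overlap at 819 loci, 24% of those tested. In 50 kb windows, 256 of 2451 (10.4%) were called higher and 126 (5.14%) lower, and 114 (4.65%) and 120 (4.90%) with total scaling. The ages did not overlap in 29.0% of the windows.

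These counts changed strongly when a single animal was left out. Such a fit also has fewer replicates, and what lies behind the change in counts was not tested. Without P28 animal 4 there were 524 calls among loci, without P10 animal 3 there were 7, and without P10 animal 1, P10 animal 2 and P28 animal 1 there were 128, 93 and 156. With the same 3406 loci tested each time they were 534, 23, 212, 151 and 168. Without P10 animal 3 on these loci, 648 had an unadjusted p under 0.05 (edgeR), against 953 with all animals. For windows the counts were 618 without P28 animal 4, 16 without P10 animal 3, and 129, 102, 157 and 200 without P10 animal 1, P10 animal 2, P28 animal 1 and P28 animal 3.

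Loci called higher lay at longer genes than loci called lower. Their median gene length was 211 kb, against 24.8 kb for loci called lower and 59.3 kb for all loci tested. Of the insertions in the loci called higher, between 4.84% and 6.70% lay near a gene end in the 7 animals, and of those in the loci called lower between 33.3% and 46.0%. Among loci with a promoter sequence of 300 bases, 62.2% of those called higher and 71.4% of those called lower held a GC box, against 73.8% of those tested. These are descriptions of called loci, and their part in the calls was not tested.

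Among the 15 named loci higher at P28 were genes of astrocytes and of neuronal signalling. Named loci, and named windows and starts below, were chosen from these data for passing the threshold with groups that did not overlap. Groups without overlap at a named feature are therefore not a further result. Gjb6 encodes connexin 30, a gap junction protein of astrocytes (chromosome 14, 57123301 to 57133611). Its level was 237, 258, 267 and 109 CPM in P28 animals 1 to 4 and 58.7, 53.8 and 30.5 CPM in P10 animals 1 to 3. The groups did not overlap, and P28 animal 4 was the lowest of its group. The counts behind these levels were 51, 29, 43 and 55 insertions at P28 and 5, 5 and 3 at P10. Gjb6 rose by 2.07 (SE 0.42, adjusted p = 0.00570, edgeR). Around its start alone, within 1 kb, there were 17, 9, 18 and 17 insertions in the P28 animals and 0, 1 and 1 in the P10 animals.

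Sall1, a zinc finger repressor that is best known in the brain from microglia and is listed here with glial factors, gave the next largest change among the named loci (chromosome 8, 89027242 to 89044162). Its level was 339, 241, 360.3 and 199 CPM in the P28 animals and 106, 86.0 and 61.1 CPM in the P10 animals. Every P28 animal was above every P10 animal, a rise of 1.73 (SE 0.31, adjusted p = 0.00453, edgeR). It passed the threshold with any of the 7 animals left out on the same loci, with changes between 1.54 and 1.94. Within the pool sets the differences were 2.05 and 1.25. Its mean unfused level was 145 CPM in Syn1Cre (69.8 to 349) and 246 CPM in GFAPCre (146 to 372), with overlap.

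Nf1 encodes neurofibromin, a brake on Ras. It stood at 414, 339, 441 and 338 CPM at P28 and 93.9, 151 and 122 CPM at P10, and rose by 1.63 (SE 0.25, adjusted p = 0.00143, edgeR). All 4 P28 levels lay close together, animal 4 included. Omg, which encodes oligodendrocyte myelin glycoprotein and lies inside Nf1, shares these insertions and changed by 2.42 (SE 0.42, adjusted p = 0.00353, edgeR). Omg was singled out after its values were seen.

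Grin2b encodes an NMDA receptor subunit that is prominent early in cortical life. Its level was 544, 472, 516 and 601 CPM at P28 and 188, 139.8 and 244 CPM at P10. Here P28 animal 4 was the highest, and the ages did not overlap. Grin2b rose by 1.49 (SE 0.24, adjusted p = 0.00143, edgeR) and passed with each animal left out on the same loci. Lrrtm4, which encodes a postsynaptic adhesion protein, stood at 293, 187, 229.8 and 368 CPM at P28 and 70.5, 108 and 132 CPM at P10, a rise of 1.44 (SE 0.30, adjusted p = 0.00570, edgeR). App, the amyloid precursor protein gene, rose by 1.34 (SE 0.33, adjusted p = 0.0114, edgeR).

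The remaining named loci that rose did so by 1.37 to 1.62. They were Fam20a, Dbx2, Clybl, Ranbp3l, Septin7, Gramd3, Bco2, Abi1 and Afg1l. Dbx2 is a homeobox gene, Septin7 a cytoskeletal GTPase gene, and Abi1 a regulator of actin. In 7 of these 9, all but Fam20a and Septin7, P28 animal 4 was the lowest P28 animal.

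The 15 named loci lower at P28 include regulators of splicing, chromatin and transcription. Ptbp1 encodes a splicing repressor that falls silent as neurons form. Its level was 69.7, 98.0, 130.4 and 101 CPM in the P28 animals and 199.6, 333 and 224 CPM in the P10 animals. No P28 animal reached the lowest P10 animal, and Ptbp1 fell by 1.35 (SE 0.26, adjusted p = 0.00453, edgeR). It passed with each animal left out on the same loci, and the unfused levels were 26.6 CPM in Syn1Cre and 17.9 CPM in GFAPCre.

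Rara, the retinoic acid receptor alpha gene, had 88.3, 160.4, 99.4 and 87.6 CPM at P28 and 176, 247 and 244 CPM at P10, and fell by 1.15 (SE 0.26, adjusted p = 0.00693, edgeR). Pak4, a kinase of the actin cytoskeleton, fell by 1.14 (SE 0.24, adjusted p = 0.00586, edgeR). Phc1, a Polycomb subunit, and Asf1a, a histone chaperone, each had a log2 fold change of -1.0. Sp4, a family member of SP1, stood at 139, 151, 99.4 and 191 CPM at P28 and 329, 333 and 254 CPM at P10, with a log2 fold change of -0.99 with SE 0.24 (adjusted p = 0.00946, edgeR).

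Sp1 itself, named here after its values were seen, had a mean of 509 CPM at P28 and 949.7 CPM at P10 and a log2 fold change of -0.94 with SE 0.21 (adjusted p = 0.00631, edgeR). Within 1 kb of its start there were 7, 5, 1 and 12 insertions in the P28 animals and 5, 8 and 7 in the P10 animals, with 4 GC boxes in the bases printed above. In the stretch of chromosome 15 from 102400001 to 102700000, which holds Sp1, 3 of 6 windows were called lower, with log2 fold changes from -0.96 to -0.58.

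Arhgap15, a Rac GTPase-activating protein gene, also fell (chromosome 2, 43748798 to 44395953). It stood at 381, 196, 366 and 507 CPM at P28 and 869, 624 and 895 CPM at P10, and fell by 1.06 (SE 0.23, adjusted p = 0.00631, edgeR). The remaining named loci that fell were Abhd11, Arhgap33, Ly6g6c, Usp28, Slc29a4, Mier3, Tram2 and 2200002D01Rik, with log2 fold changes between -1.08 and -0.98. Abhd11, Ly6g6c and 2200002D01Rik are short genes, so most of each locus is its 10 kb flanks, whose insertions neighbouring genes can share. All 30 named loci kept their direction with total scaling and passed there. The named loci were chosen by their large changes in the same animals, so this is no independent check.

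**Figure D2:**
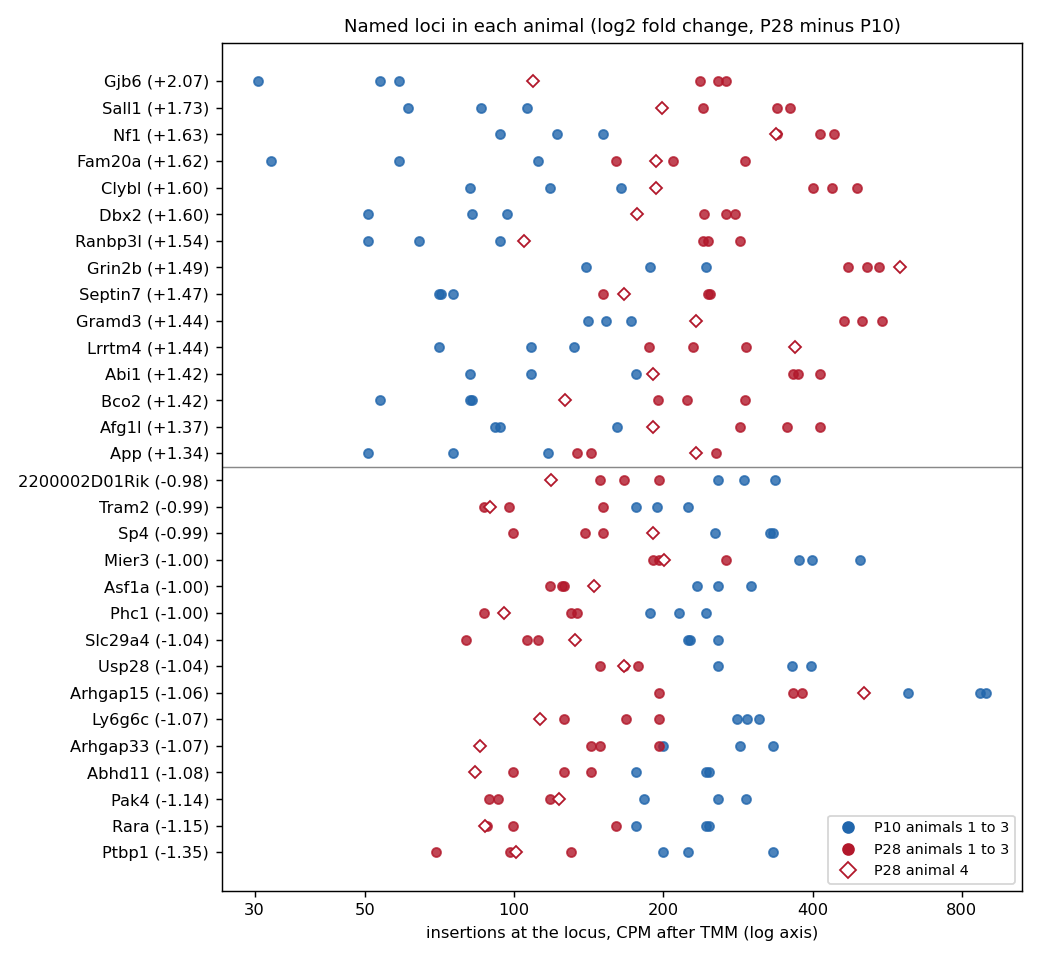
Insertions at the 30 named loci in each animal, in CPM after TMM scaling on a log axis; blue, P10 animals; red circles, P28 animals 1 to 3; open diamonds, P28 animal 4. No locus has overlapping groups, which the rule required, and the diamond is the lowest P28 point at Gjb6, Sall1 and Clybl but the highest at Grin2b and Lrrtm4.

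Lists of cell type and developmental genes describe the changes by program. For each list the counts of called loci and the median are set beside those of all loci, where 7.31% were called higher, 3.70% lower, and the median was 0.03. An unadjusted p under 0.05 (edgeR) was found at 953 of all 3406 loci tested, so such counts within a list are read against that share. The lists were chosen with earlier results of these data known and carry no test, so they only describe these loci.

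Of 24 astrocyte markers 14 had enough insertions, 4 were called higher and 0 lower, and the median change was 0.76. Slc1a2 and Slc1a3 encode the glutamate transporters of astrocytes. Slc1a2 stood at 646, 544, 689 and 398 CPM at P28 and 329, 301 and 214 CPM at P10, a rise of 1.00 (SE 0.24, adjusted p = 0.0105, edgeR). Slc1a3 rose by 0.83 (SE 0.27, adjusted p = 0.0468, edgeR), but its groups overlapped, since P28 animal 4 had 370.1 CPM and the highest P10 animal 462 CPM. It did not pass with total scaling (adjusted p = 0.0770). Ttyh1, which encodes a membrane protein of the Tweety family, rose by 2.13 (SE 0.44, adjusted p = 0.00570, edgeR), with only 2, 4 and 1 insertions in the P10 animals. Aqp4, the water channel of astrocyte endfeet, had a log2 fold change of 0.34 (adjusted p = 0.582, edgeR).

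The summed level of the 24 astrocyte marker loci, in CPM of all insertions, was 4312, 4603 and 5113 in P28 animals 1 to 3 and 2379 in P28 animal 4. In the P10 animals it was 2331, 2805 and 2125. P28 animal 4 thus lay inside the P10 range. None of the 24 loci was without insertions at either age. In unfused Syn1Cre cortices the sum ran from 1496 to 4458, and in GFAPCre from 1864 to 3641. Whether the share of astrocytes among the marked cells differs between animals was not tested. In bulk cortex more cells of a type and more insertions per cell cannot be told apart.

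Of 20 glial transcription factor genes 12 were tested, 5 were called higher and 0 lower, and the median was 0.75. The 5 were Sox21, Sall1, Gli3, Nfia and Zbtb20. Sox21, a repressor of the SoxB family, stood at 135, 151, 137 and 75.6 CPM at P28 and 35.2, 32.3 and 10.2 CPM at P10, a rise of 2.13 (SE 0.48, adjusted p = 0.00693, edgeR). Its P10 levels rest on 3, 3 and 1 insertions. Gli3, a mediator of Hedgehog signalling, rose by 1.17 (SE 0.29, adjusted p = 0.0120, edgeR). Nfia, a factor that starts gliogenesis, rose by 0.91 (SE 0.24, adjusted p = 0.0166, edgeR), with P28 animal 4 at 1992 CPM and P10 animal 2 at 2097 CPM. The summed level of the list was 14723, 14514 and 14972 in P28 animals 1 to 3, 8067 in P28 animal 4, and 7676, 9941 and 7222 in the P10 animals. This sum leans on a few large loci. At P28 Zbtb20, Nfia and Npas3 held 3599, 3113 and 2305 of a mean of 13069 CPM of all insertions. At P10 they held 2022, 1748 and 1786 of 8279.8 CPM.

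The calls of both lists moved with the animals used. Without P28 animal 4, on the same loci, 11 astrocyte markers and 10 glial factors were called higher. Without P10 animal 3 they were 0 and 1. With distinct positions as the count they were 2 and 2, and with DESeq2 1 and 4.

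Some neuronal genes were called higher as well. Of 20 pan-neuronal markers 13 were tested, 5 were called higher and 0 lower, with a median of 0.67. Syt1, the calcium sensor of synaptic vesicle release, stood at 753, 472, 609 and 819.9 CPM at P28 and 329, 366 and 346 CPM at P10, a rise of 0.96 (SE 0.23, adjusted p = 0.00866, edgeR). Map2, a dendritic microtubule protein gene, Rbfox1, a neuronal splicing factor gene, and Gpm6a, that of a neuronal membrane glycoprotein, were also among them. The summed level of the list was 8566, 8023, 7975 and 8008 CPM of all insertions in the P28 animals and 5804, 5620.4 and 6192 in the P10 animals. Here P28 animal 4 stood with its group, and the ages did not overlap.

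Synapse and mature neuron genes had 15 of 30 tested, 4 called higher and 0 lower, with a median of 0.52. Besides Grin2b these were Grin2a, whose product joins NMDA receptors later in life, Gria2, an AMPA receptor subunit gene, and Dlgap1, a scaffold gene of the postsynaptic density. Gria2 stood at 432, 356, 379 and 370.1 CPM at P28 and 176, 204 and 204 CPM at P10, a rise of 0.98 (SE 0.22, adjusted p = 0.00694, edgeR). Grin2a rose by 1.07 (SE 0.33, adjusted p = 0.0346, edgeR), with overlapping groups, and did not pass with total scaling (adjusted p = 0.0585).

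Of 33 cell adhesion genes 31 were tested, 12 were called higher and 0 lower, and the median was 0.72. The list was not matched to all loci by gene length, and loci called higher had longer genes (median 211 kb against 59.3 kb of those tested). Whether length bears on these calls was not tested. With total scaling 9 were called higher, and the ages overlapped at Opcml, Lingo2 and Pcdh17. Ntm, a GPI-anchored adhesion protein gene of the IgLON family, stood at 1455, 1355, 1360.3 and 1093 CPM at P28 and 564, 645 and 488 CPM at P10. It rose by 1.21 (SE 0.21, adjusted p = 0.00353, edgeR) and passed with each animal left out on the same loci. Cadm2, a synaptic cell adhesion gene, stood at 2734, 1960.5, 2453 and 2039.8 CPM at P28 and 1092, 1247 and 997 CPM at P10, a rise of 1.05 (SE 0.21, adjusted p = 0.00570, edgeR). The remaining 10 were Lsamp, Opcml, Negr1, Ncam2, Nrcam, Lrrtm4, Lingo2, Cdh10, Pcdh9 and Pcdh17, with changes from 0.70 to 1.44. Without P10 animal 3, on the same loci, 2 adhesion genes, 1 synapse gene and 0 pan-neuronal markers were called higher. Without P28 animal 4 they were 18, 3 and 6, and 1 adhesion gene and 1 synapse gene were called lower.

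Among interneuron genes calls ran the other way. Of 25 genes 14 were tested, 4 were called lower and 0 higher, and the median was -0.50. Lhx6 is the homeobox factor of interneurons from the medial ganglionic eminence (chromosome 2). It stood at 55.8, 44.6, 43.5 and 59.7 CPM at P28 and 129, 96.8 and 193 CPM at P10. The groups did not overlap, and Lhx6 fell by 1.38 (SE 0.33, adjusted p = 0.0102, edgeR). Its counts were small, with 12, 5, 7 and 30 insertions at P28 and 11, 9 and 19 at P10.

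Gad2 encodes a GABA-synthesising enzyme. Its level was 60.4, 80.2, 43.5 and 69.7 CPM at P28 and 106, 129 and 173 CPM at P10, so that it fell by 1.09 (SE 0.32, adjusted p = 0.0286, edgeR). Nxph1, a secreted neurexin ligand gene, fell by 0.84 (SE 0.22, adjusted p = 0.0166, edgeR). Zeb2, a factor that directs migrating interneurons, is also used by other neurons and glia. It stood at 1576, 1256, 1497 and 1264 CPM at P28 and 2055, 2161 and 2208 CPM at P10, with a log2 fold change of -0.61 with SE 0.19 (adjusted p = 0.0400, edgeR). Within 1 kb of its starts, scaled to other starts, Zeb2 went the other way without overlap but was not called. The log2 fold change there was 0.39 with SE 0.17 (adjusted p = 0.254, edgeR), and -0.20 with total scaling.

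The summed interneuron level was 5698, 5383, 6096 and 4253 CPM of all insertions in the P28 animals and 6934, 8072 and 7812 in the P10 animals, with no overlap. Unfused Syn1Cre stood at 5548 ± 488 (SD, n = 6) and GFAPCre at 3348 ± 398 (SD, n = 6). With total scaling 5 interneuron loci were called lower, with DESeq2 2, and without P10 animal 3 on the same loci 0.

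Layer genes were mixed. Of 14 upper-layer genes 12 were tested, 2 were called higher and 1 lower, with a median of 0.38. Cux2, an upper-layer homeobox factor, stood at 325, 258, 298 and 346 CPM at P28 and 728, 409 and 590.2 CPM at P10, and its log2 fold change was -0.87 (SE 0.21, adjusted p = 0.0108, edgeR). Cux2 is also used by some interneurons. Rorb, a layer 4 nuclear receptor, stood at 818, 757, 745 and 515 CPM at P28 and 388, 312 and 315 CPM at P10, a rise of 1.05 (SE 0.23, adjusted p = 0.00586, edgeR). Of the 8 deep-layer genes tested 0 were called by edgeR or DESeq2, and the median was 0.40. An unadjusted p under 0.05 (edgeR) was found at 3 of the 8, against 953 of all 3406 loci. Bcl11b, the CTIP2 gene, had a log2 fold change of -0.51 with SE 0.20 (adjusted p = 0.0942, edgeR) and was called lower with total scaling (adjusted p = 0.0456).

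Immature neuron and neurite growth genes had 18 of 24 tested and 0 calls by edgeR or DESeq2 (2 with an unadjusted p under 0.05), with a median of -0.12 and changes from -0.56 to 0.48. With total scaling 1 of them was called lower. Their summed level was lower in each P28 animal (3265 to 3875 CPM of all insertions) than in each P10 animal (4059 to 4438). Among 12 cytoskeleton and axon transport genes tested, Mapt and Map2 were called higher and Limk1 lower. Mapt, the tau gene, stood at 302, 303, 329 and 354 CPM at P28 and 211, 161 and 91.6 CPM at P10, a rise of 1.09 (SE 0.25, adjusted p = 0.00758, edgeR). Limk1, an actin-regulating kinase gene, had a log2 fold change of -0.62 with SE 0.20 (adjusted p = 0.0444, edgeR).

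Ribosomal protein genes, of the broadly used kind, had 9 of 72 tested, 0 called higher and 1 lower, Rpl41, with a median of 0.10. Of the activity-dependent genes 5 were tested, with 0 calls by edgeR or DESeq2 (0 with an unadjusted p under 0.05) and a median of 0.22. Oligodendrocyte, progenitor and cell cycle, and microglia and vascular genes had 2, 1 and 1 loci tested and 0 calls by edgeR or DESeq2 (0, 0 and 1 with an unadjusted p under 0.05). The summed oligodendrocyte level ran from 452 to 596 CPM of all insertions at P28 and from 436 to 559 at P10. The microglia and vascular sum over 16 loci ran from 249 to 303 at P28 and from 308 to 483 at P10, with 6 of the loci empty in the P10 animals.

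**Figure D3:**
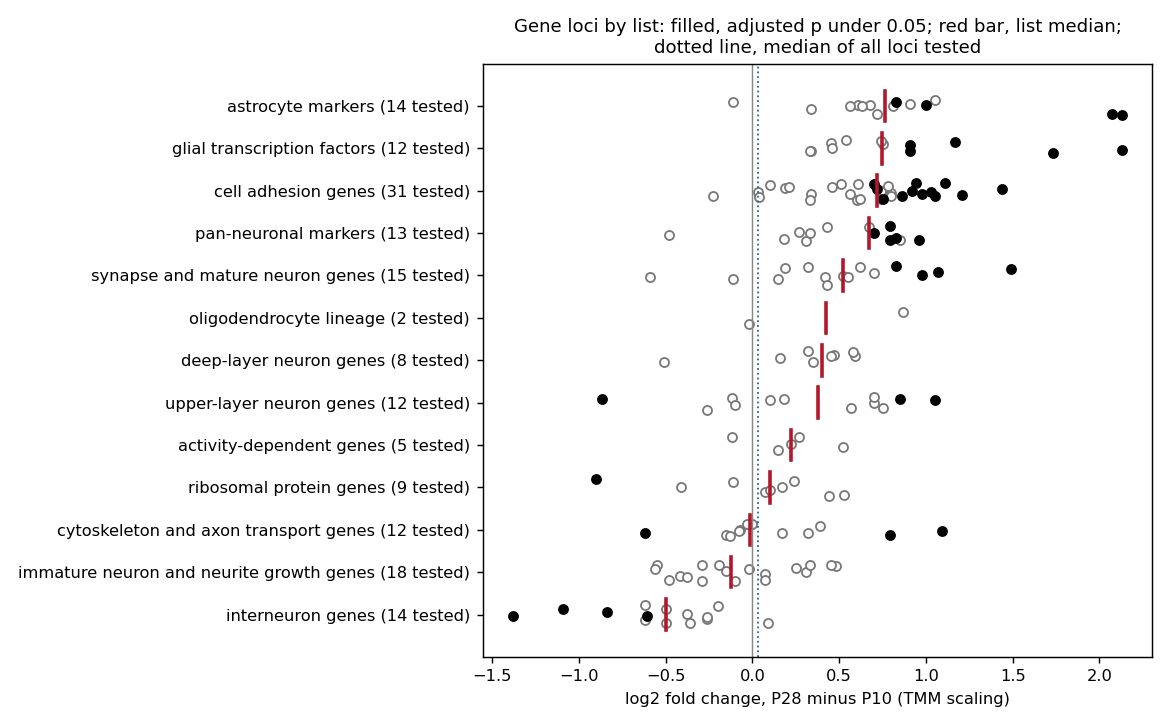
Log2 fold change, P28 minus P10, of each tested locus in 13 gene lists, ordered by list median; filled points passed an adjusted p of 0.05 (edgeR), open points did not, red bars are list medians and the dotted line is the median of all loci (0.03). Astrocyte (median 0.76), glial factor (0.75), adhesion (0.72) and pan-neuronal (0.67) lists lie to the right of that line, and the immature neuron (-0.12) and interneuron (-0.50) lists to its left.

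The 50 kb windows show where inside a locus the ages differ. Gpm6a lies on chromosome 8 from 54779434 to 55060878, over 281 kb. The whole locus stood at 1395, 1194, 1342 and 1057 CPM at P28 and 669, 742 and 743 CPM at P10, a rise of 0.79 (SE 0.20, adjusted p = 0.0142, edgeR). The window over the gene's start held 489, 526, 532 and 287 CPM at P28 against 92.7, 117 and 112 CPM at P10. Every P28 animal was above every P10 animal, and the window rose by 2.04 (SE 0.29, adjusted p = 0.000982, edgeR). A second busy window, centred 196 kb into the gene, held 459 ± 75.1 CPM of all insertions (SD, n = 4) at P28 and 427 ± 64.5 (SD, n = 3) at P10, a log2 fold change of 0.25 with SE 0.21 (adjusted p = 0.441, edgeR). The windows were not tested against each other.

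Zbtb20, a zinc finger repressor that promotes astrocyte formation, spans 759 kb of chromosome 16. Its locus held 4473, 3707, 4373 and 2091 CPM at P28 and 1961, 2247 and 1628 CPM at P10. It rose by 0.91 (SE 0.25, adjusted p = 0.0196, edgeR), but P28 animal 4 was below P10 animal 2, and in 5 of 7 fits that left out an animal on the same loci it did not pass. The window centred 49 kb from the start changed most, with 845 ± 315 CPM of all insertions (SD, n = 4) at P28 and 268 ± 74.8 (SD, n = 3) at P10, a rise of 1.72 (SE 0.29, adjusted p = 0.00313, edgeR). A window centred at 649 kb rose by 0.73 (SE 0.24, adjusted p = 0.0462, edgeR). Within the pool sets the locus differed by 0.96 and by 0.22.

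Mef2c is an activity-regulated transcription factor of neurons. The locus on chromosome 13 (83504017 to 83667079) was not called, with 1134, 918, 1286 and 1023 CPM at P28 and 1398, 1398 and 1129 CPM at P10, a log2 fold change of -0.26 with SE 0.20 (adjusted p = 0.405, edgeR). Far upstream, the window from 82900001 to 82950000, 554 kb from the gene, held 145, 149, 199.7 and 189 CPM at P28 and 486, 543 and 449 CPM at P10. The ages were wide apart there, and it fell by 1.50 (SE 0.19, adjusted p = 0.000562, edgeR), passing with each animal left out on the same windows. Another, centred 779 kb upstream, held 38.1 ± 18.4 CPM of all insertions (SD, n = 4) at P28 and 218 ± 40.9 (SD, n = 3) at P10, and fell by 2.36 (SE 0.33, adjusted p = 0.000982, edgeR).

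Unfused Syn1Cre cortices had 586 CPM in the nearer of these windows and 103 CPM in the farther, and GFAPCre cortices 505 and 53.4 CPM. A busier window, centred 221 kb downstream of the Mef2c start, held 2341 ± 505 CPM of all insertions (SD, n = 4) at P28 and 2686 ± 262 (SD, n = 3) at P10 (log2 fold change -0.11 with SE 0.20, adjusted p = 0.754, edgeR). A smaller window at 521 kb rose by 0.98 (SE 0.32, adjusted p = 0.0462, edgeR). At Sall1 the window over the gene rose by 1.72 (SE 0.31, adjusted p = 0.00394, edgeR), while that centred 281 kb upstream had a log2 fold change of 0.71 with SE 0.31 (adjusted p = 0.132, edgeR).

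**Figure D4:**
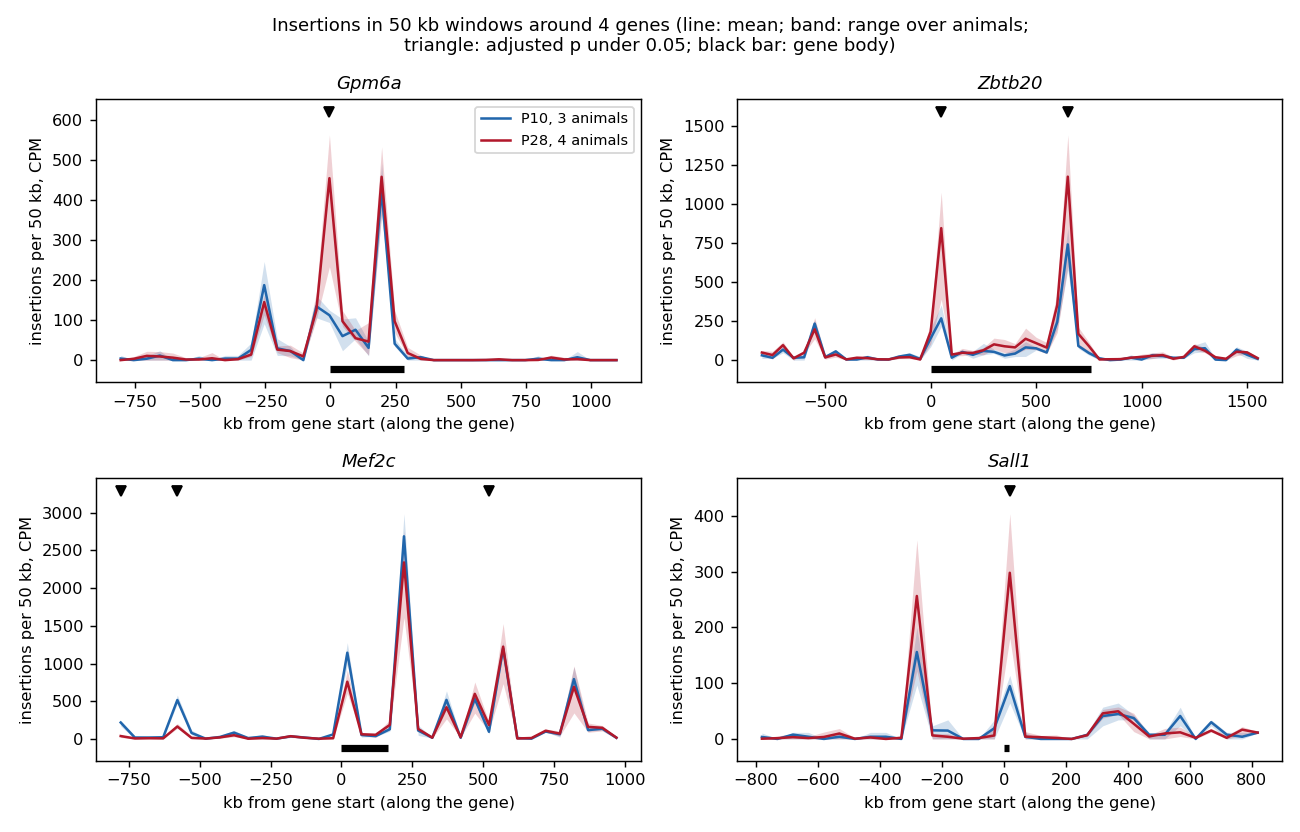
Insertions per 50 kb window, in CPM of all insertions, by distance along the gene from the start of Gpm6a, Zbtb20, Mef2c and Sall1; lines are means, bands the range over 4 P28 (red) or 3 P10 (blue) animals, triangles windows with an adjusted p under 0.05 and black bars the gene bodies. The P28 line stands above P10 at the start of Gpm6a (455 against 113 CPM) and below it 579 kb upstream of Mef2c (165 against 516 CPM).

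Other named windows that rose included regions of transcription factor and receptor genes. The window on chromosome 15 from 95650001 to 95700000, over Dbx2, held 308, 298, 339 and 209 CPM at P28 and 69.5, 85.2 and 51.1 CPM at P10, a rise of 2.02 (SE 0.30, adjusted p = 0.00122, edgeR). That of Mertk, a phagocytic receptor of astrocytes and microglia, held 389.5, 447, 581 and 222 CPM at P28 and 81.1, 138 and 91.9 CPM at P10, a rise of 1.91 (SE 0.35, adjusted p = 0.00394, edgeR). A window 34.9 kb from S1pr1, a sphingosine phosphate receptor gene, rose by 1.91 as well (SE 0.34, adjusted p = 0.00394, edgeR), and was among 4 adjacent called windows around S1pr1 and Dph5 with changes from 1.59 to 1.91.

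Groups of 4 called windows, with uncalled or untested windows between them, also lay over Nfia, with changes from 1.01 to 1.30, over Cadm2, from 1.18 to 1.76, and over Trpm3, a cation channel gene, from 1.22 to 1.79. Further named windows that rose overlapped Nt5c2, Gjb2 with Gjb6, Rfx3, Trpm3 and Prdm16, or lay nearest to Ncoa1, by 1.79 to 2.13. Prdm16 is a chromatin regulator of neural stem cells and astroglia. P28 animal 4 was the lowest P28 animal in all 10 named windows that rose.

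Windows that fell lay both at genes and far from them. A window inside Arhgap15, on chromosome 2, held 109, 43.9, 72.6 and 124 CPM at P28 and 313, 202 and 306 CPM at P10, and fell by 1.48 (SE 0.27, adjusted p = 0.00394, edgeR). Between 44900001 and 45100000 of that chromosome, over Gtdc1 and Zeb2, 3 of 4 windows were called lower, with log2 fold changes from -1.03 to -0.71. A pair of adjacent windows over Cux2 was called lower too, with log2 fold changes of -1.08 and -0.79. A window on chromosome 12 from 51000001 to 51050000, whose nearest gene is G2e3 at 298 kb, held 49.8, 61.4, 78.7 and 84.7 CPM at P28 and 243, 202 and 174 CPM at P10, and fell by 1.52 (SE 0.27, adjusted p = 0.00394, edgeR). The remaining named windows that fell covered Ptbp1 with its neighbours, Tfap4 with Glis2, Htr3b with Usp28, Kcnn3, Arhgap33 with its neighbours, and Mier3 with Map3k1, or lay nearest to Zfp608, with log2 fold changes between -1.13 and -1.04.

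Of the windows called higher 10.2% had no protein-coding gene, of those called lower 15.1%, and of those tested 10.2%.

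Gene starts alone were compared as well. Within 1 kb of a start, 395 genes had enough insertions, and 22 (5.57%) were called higher and 0 (0%) lower when starts were scaled to each other by TMM (75 of 395 had an unadjusted p under 0.05). The ages did not overlap at 17.2% of the starts. With total scaling the median start had a log2 fold change of -0.62 and 0 were called (139 with an unadjusted p under 0.05), and DESeq2 called 2. The rises below are therefore relative to the other starts. Among the 22, 9 (40.9%) held a GC box in the 250 bases before a start, against 81.5% of the 395.

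Kcnj16, a potassium channel gene of astrocytes, had the largest change, with 150.2, 140.4, 119 and 87.8 CPM at P28 and 20.9, 34.4 and 8.14 CPM at P10, a log2 fold change of 2.45 with SE 0.39 (adjusted p = 0.000362, edgeR). Its counts were 28, 17, 19 and 27 insertions at P28 and only 2, 4 and 1 at P10. Slc7a11 encodes the cystine-glutamate exchanger of astrocytes. Its start held 343, 363, 362 and 208 CPM at P28 and 157, 94.6 and 81.4 CPM at P10, a change of 1.46 (SE 0.25, adjusted p = 0.000528, edgeR), and 64, 44, 58 and 64 insertions against 15, 11 and 10. Dio2, which encodes the enzyme that makes active thyroid hormone in astrocytes, had 156, 90.8, 119 and 111 CPM at P28 and 31.3, 51.6 and 24.4 CPM at P10, a change of 1.72 (SE 0.32, adjusted p = 0.00105, edgeR). Over its whole locus Dio2 was not called, and the groups overlapped (log2 fold change 0.91 with SE 0.32, adjusted p = 0.0610, edgeR).

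Gja1, the connexin 43 gene, changed by 1.32 at its start (SE 0.32, adjusted p = 0.0104, edgeR), Bmpr1b, a bone morphogenetic protein receptor gene, by 1.54 (SE 0.31, adjusted p = 0.00158, edgeR), and Trpm3 by 1.46 (SE 0.29, adjusted p = 0.00141, edgeR). Over the whole Gja1 locus the groups overlapped and there was no call (log2 fold change 0.81 with SE 0.34, adjusted p = 0.112, edgeR). Cdh10, a cadherin gene, changed by 1.83 (SE 0.34, adjusted p = 0.00105, edgeR), and Celf2, a splicing regulator gene, by 1.28 (SE 0.26, adjusted p = 0.00294, edgeR). The starts of Gpm6a had 129, 107, 137 and 163 CPM at P28 and 73.1, 60.2 and 65.1 CPM at P10, a change of 1.09 (SE 0.25, adjusted p = 0.0147, edgeR). Mef2c starts stood at 193, 189.9, 212 and 189 CPM at P28 and 272, 249 and 269 CPM at P10, without overlap, a log2 fold change of -0.43 that did not pass (SE 0.15, adjusted p = 0.198, edgeR). Starts of Zbtb20 and Sall1 had too few insertions to be tested.

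The broadly used genes Nup93, Ube2d3, Fbrs, Naa35 and H2bc6, with Slc7a11 the 6 starts that met the naming rule, changed by 0.58 to 1.07. At Nup93 most of the insertions lay around an inner start, at 94266847, with 0 GC boxes in the 250 bases before it. That start held 61, 34, 39 and 118 insertions at P28 and 17, 20 and 17 at P10. The start at 94214564, with 4 GC boxes, held 5, 2, 1 and 6 at P28 and 1, 2 and 2 at P10. Ube2d3 held 284, 206, 231 and 241 CPM at P28 and 146, 138 and 163 CPM at P10, a change of 0.70 (SE 0.18, adjusted p = 0.0278, edgeR). Its log2 fold change with total scaling was 0.11.

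Levels without SP1 were set beside the change with age. Across the 3406 loci the log2 fold change from P10 to P28 and the log2 ratio of unfused Syn1Cre over GFAPCre levels had Pearson's r = -0.34 and Spearman's rho = -0.34, and across the 2451 windows -0.42 and -0.43. Loci are not independent replicates, neighbouring loci share insertions, and no p is given. Of the 249 loci called higher, 191 (76.7%) were below 0 in that ratio, that is, lower in Syn1Cre than in GFAPCre. Of the 126 called lower 33 (26.2%) were, and of all loci tested 43.0%. The median ratio was -0.15, 0.16 and 0.04. Lhx6 stood at 28.6 CPM in Syn1Cre and 3.39 CPM in GFAPCre, Gad2 at 47.0 and 12.1, Nxph1 at 279.6 and 68.4, and Zeb2 at 1856 and 1539.9, so all 4 interneuron loci that fell were higher in Syn1Cre. The 9 astrocyte and glial factor loci called higher varied in this ratio. Sox21 stood at 40.4 and 87.0, Sall1 at 145 and 246, Slc1a3 at 322 and 501, Nfia at 2017 and 2717, Zbtb20 at 1981 and 2586, Gli3 at 258 and 272, and Slc1a2 at 391 and 405. Ttyh1 stood at 71.0 and 71.1 and Gjb6 at 93.4 and 84.4. These are means, and at all 9 loci the Syn1Cre and GFAPCre animals overlapped. Sox21 ran from 14.9 to 102 CPM in Syn1Cre and from 44.3 to 123 CPM in GFAPCre, and Nfia from 1453 to 3719 and from 1708 to 3918.

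**Figure D5:**
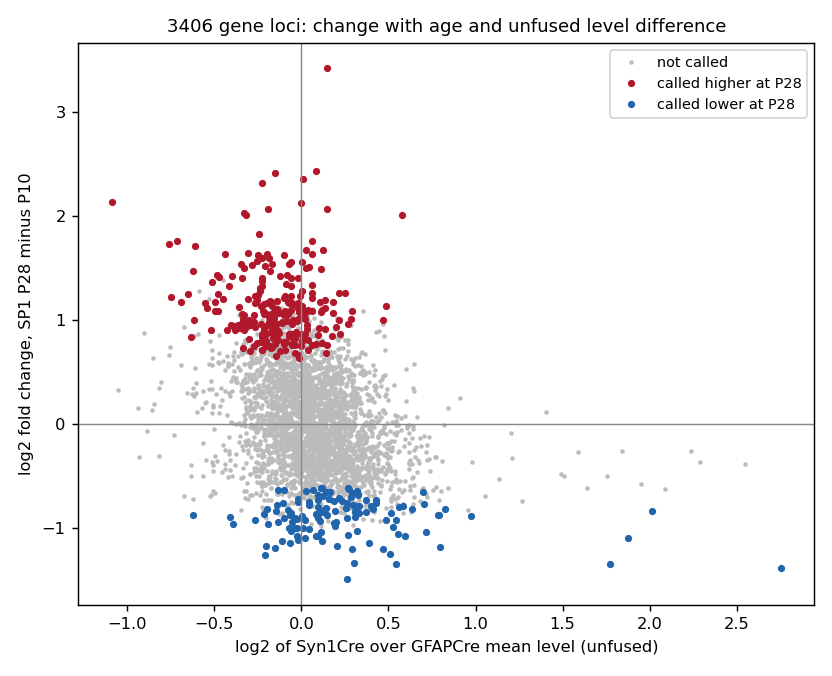
Each point is 1 of 3406 gene loci; the horizontal axis is the log2 ratio of mean levels in unfused Syn1Cre over GFAPCre cortex (6 animals each), the vertical axis the log2 fold change of SP1 insertions, P28 minus P10; red and blue points passed an adjusted p of 0.05 (edgeR). Most red points (191 of 249) lie left of 0 and most blue points to the right.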

How the data were processed

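Each deposited table lists 1 insertion per line with a read count, a whole number without normalization in the authors' files. The submitters' processing notes name the build mm10 and the tools Novoalign and Bowtie2, with no version or role; counting filters are not given in the sources used here. Coordinates are GRCm38, 1-based: of 17140 positions in promoter sequences 17140 lay at TTAA. Genes and starts came from RefSeq tables (20665 protein-coding genes on chromosomes 1 to 19, 16457 with a start).

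A line counted as 1 insertion, whatever its reads. Lines were counted in 49223 windows of 50 kb, in gene loci with 10 kb flanks and within 1 kb of starts. edgeR 4.0.16 in R 4.3.3 (glmQLFit, glmQLFTest) was run on these counts with TMM factors, filterByExpr and the total on chromosomes 1 to 19 as library size; the SE is the log2 fold change divided by the root of F. DESeq2 was an alternative. Tested on simulated data with 200 changed features, the loci fit recovered 49% of 2-fold and 95% of 4-fold changes, with 4% false calls. The simulated counts were drawn independently for each locus. They held no shared pools, no insertions shared by neighbouring loci and no animal shifted over many loci. The rate of false calls in the real data can therefore differ.

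Named loci were the 15 highest and 15 lowest changes, windows the 10 and 10, starts the 8 and 8, among features that passed 0.05, had groups without overlap and lay at or above the median mean level, skipping overlapping loci and windows within 200 kb. At starts 6 met the rule, all higher. The markers Gpm6a, Zbtb20, Mef2c and Sall1 and list members that passed or were needed to describe a list were also named. Members, markers and the 15 lists were chosen with earlier results of these data known.

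Replicate numbers did not pair the animals: deviations of same-numbered animals correlated at 0.06, 0.08 and 0.00. Single values used exact permutation tests. Some list members are not reported here by name.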

Additional observations from a re-analysis of the deposited data

Results flagged for a closer look

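With 4 animals at P28, an animal that stood apart from the other 3 was looked for in 81 values: 7 did, where chance gives about 1 in 20. The summed level of glial transcription factor loci, much of it from Zbtb20 and Nfia, was 8067 CPM in P28 animal 4, with the next animal at 14514. The summed level of pan-neuronal loci was 8566 CPM in P28 animal 1, above 8023 in the next. Among loci, Rara was high in P28 animal 2 (160.4 CPM, next 99.4), Tram2 in the same animal (151 CPM, next 97.6) and Mier3 in P28 animal 3 (267 CPM, next 201). Among starts, Slc7a11 was low in P28 animal 4 (208 CPM, next 343) and Naa35 high there (169 CPM, next 140.4).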

How the results depend on the processing

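Counts of calls depended on the animals and settings. Windows went from 382 to 147 with DESeq2, 196 with distinct positions, 234 with total scaling and 614 with the replicate number as a block, and to between 16 and 618 with an animal left out. Loci went from 375 to 159 with DESeq2, 213 with distinct positions, 188 for bodies without flanks and 618 with the sets of animals that shared most pools as a block (5 animals), and to between 7 and 524 with an animal left out. Starts went from 22 to 69 within 2 kb, 2 with DESeq2, 0 with distinct positions, 5 without a filter, 12 with the replicate block, 0 with total scaling, 13 with the pool block and 4 after thinning, and to between 5 and 21 with an animal left out. On unchanged features, an alternative chosen after seeing the data, leaving out P10 animals 1 to 3 and P28 animals 1 and 4 gave 178, 162, 54, 183 and 658 windows and 212, 151, 23, 168 and 534 loci, and starts ran from 10 to 26. Gene body shares differed by 5.33 to 5.99 points with an animal left out, where the smallest possible p is 0.0667 or 0.100. The other planned settings kept the counts of windows, loci and starts within 1.5 times. No named locus, window or start reversed in any setting that tested it. Named features were chosen as large changes in these same animals, so a kept direction or a repeated pass is no independent check. For bodies without flanks 19 named loci passed and 1 did not, and the other named loci were not tested there. Without P10 animal 3, 25 of the 30 named loci no longer passed, and 21 on unchanged loci. The causes were not tested. With the replicate block, where animals shared only a number, all 30 named loci and all 20 named windows passed. Depth limits the P10 side, with 84941 lines in the shallowest animal. Changes at features with few P10 insertions are uncertain in size, such as Gjb6 with 3 to 5, Ttyh1 and the Kcnj16 start with 1 to 4, and Sox21 with 1 to 3.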
